A study of Caenorhabditis elegans with 6 samples.

Results

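Transcript abundance in untreated Caenorhabditis elegans was described from the control channel of 6 two-colour arrays. Of the 12 samples that the arrays carried, these were the 6 control samples, and of the 23232 spots on an array the 22490 gene probes were used. Within each control sample the probes were ranked by brightness, from rank 1 for the brightest, and the ranks were averaged over the 6 samples. The control worms were of the wild type strain N2. They grew for 72 h at 16 °C, from eggs collected by bleaching, on nematode growth medium with acetone and the Escherichia coli strain OP50 as food, and were frozen as L3 to L4 larvae. Worms of 4 dishes made up a sample. Acetone is the solvent of the insecticide chlorpyrifos (CPF), which the worms of the other channel received and which is not compared here. The control RNA was labelled with Cy3 on 3 arrays (control Cy3 replicates 1 to 3) and with Cy5 on the other 3 (control Cy5 replicates 1 to 3). The methods describe independent biological replicates of each treatment, 1 for each of the 6 arrays, with a control sample on every array. Errors measure the spread between these 6 samples.

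A larva between L3 and L4 is a growing animal. Most of its cells no longer divide, and it enlarges by making protein while the epidermis lays down a new collagen cuticle at each moult. The intestine takes up bacteria and digests them with secreted and lysosomal proteases. The germline proliferates during these stages, and the hermaphrodite makes its sperm in L4 before it turns to oocytes as an adult. RNA of whole animals mixes all these tissues, so fewer cells of a type and less RNA per cell cannot be told apart.

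The 22490 probes stood for 18865 genes, and a gene was represented by its probe with the lowest mean rank. The brightest members of a list are likewise those with the lowest mean rank, which need not have the highest median percentile. Brightness also depends on the 60-base probe and not only on the amount of transcript, so that ranks order probes and are no calibrated levels of RNA. Detection, called above background below, required a spot's mean brightness to pass the mean of its surrounding background by more than 2 SD of that background. Between 41.5% (control Cy5 replicate 2) and 61.6% (control Cy5 replicate 1) of the probes were above background per sample, against 0.108% of the empty spots over all samples. Ranks of all probes correlated between samples with Spearman's rho of 0.861 to 0.948 across 10 pairs, and of 0.788 to 0.811 in the 5 pairs that included control Cy5 replicate 2. These are descriptions across probes, which share the array and its print layout.

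Some areas of some arrays stood apart. Each array is printed in 48 blocks of spots, and in 27 of the 288 blocks of the 6 samples the log2 signal correlated with the median of the other control samples at r below 0.9. Of these, 17 blocks with 35.4% of the probes lay in control Cy5 replicate 2, and 7 lay in control Cy3 replicate 3. Control Cy5 replicate 3 had 2 such blocks, control Cy3 replicate 1 had 1, and control Cy3 replicate 2 and control Cy5 replicate 1 had 0. The block of control Cy3 replicate 1 lay in block row 5 and block column 4, and there the values sat 1 spot column away from their names. It correlated with the other samples at r = 0.199 as deposited and at 0.981 when moved by 1 column, and in its CPF channel at 0.199 and 0.983. In that block the ribosomal protein gene rps-25 had a signal of 194 against 4245 to 39494 in the other 5 samples, while its neighbour exc-9 had 31772 against -3 to 1068. All ranks below are those of the deposited values, and results that rest on these blocks are also given without them, a choice made after the data were seen.

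**Figure D1:**
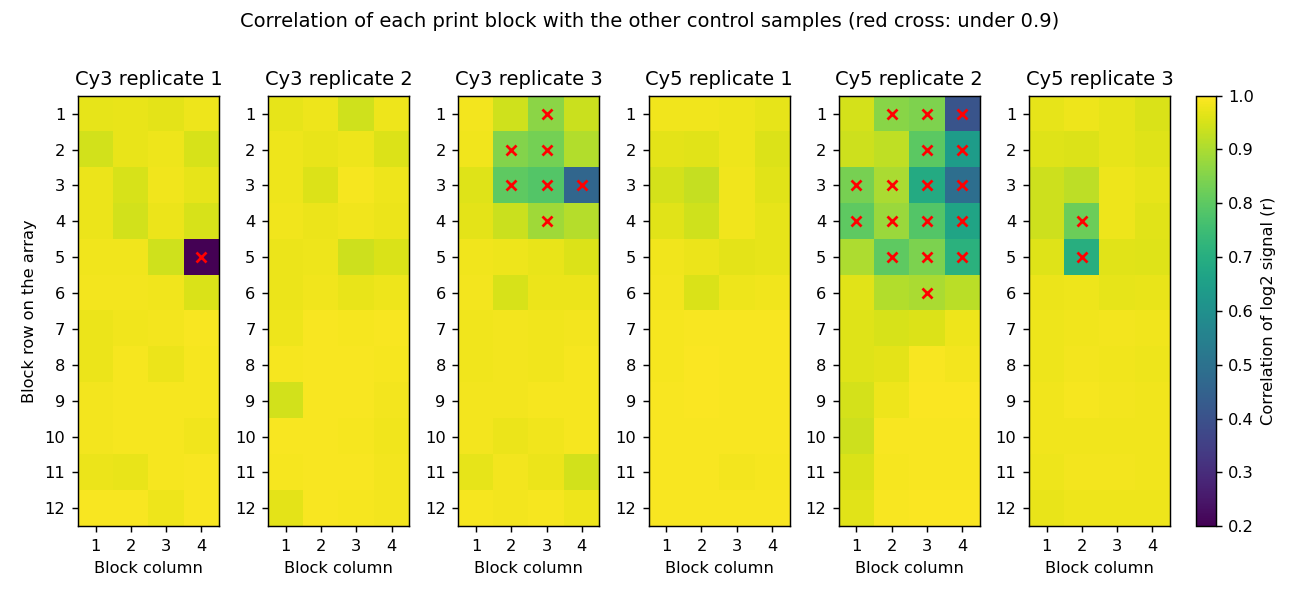
Correlation (r, colour) of the log2 control signal of each print block with the median of the other control samples, by block row and block column, for the 6 control samples. Red crosses mark the 27 blocks under 0.9, of which 17 lie in control Cy5 replicate 2 and 7 in control Cy3 replicate 3.

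Of the 18865 genes, 6902 (36.6%) were above background on all 6 control samples and 6470 (34.3%) were above it on none with any of their probes. With the 27 blocks left out, 8610 genes (45.6%) were above background on every sample that remained for their probe, and 6608 (35.03%) on none. A probe with samples left out has fewer to pass or miss, so for a given probe neither outcome can become rarer. Signal was concentrated in few genes. The 200 brightest genes (1.06% of all) held between 29.7% and 42.3% of the summed signal of a sample, the highest share being that of control Cy5 replicate 2. The place of a gene in the order held only loosely: at the limit of the 200, ant-1.1 had a mean rank of 239.5 ± 224.4 (SD, n = 6) and the next gene outside, F36A2.7, had 240.0 ± 38.5.

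Ribosomal protein genes and cuticle collagens led the order. Among the 30 brightest genes were 18 genes of the cytosolic ribosomal protein list and 5 collagens. The brightest gene of all was rpl-27A, for a protein of the large ribosomal subunit, with a mean rank of 4.5 ± 5.2 (SD, n = 6). Its signal was 49033 in the lowest, 60722 in the median and 64649 in the highest sample. The next were rps-10 (mean rank 5.0 ± 3.85) and rps-19 (9.0 ± 4.6), both of the small subunit. They were followed by the collagens col-94 (9.8 ± 6.1) and col-155 (10.7 ± 8.0). Each of the 30 genes was saturated in at least 1 sample, where its signal is a lower limit, and 5 probes were saturated in all 6: col-94, col-155, col-157, col-154 and F41F3.3. In all 30 pairs of neighbours from place 1 to place 31 the mean ranks differed by less than their pooled SD, so neighbours in this order are not resolved.

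**Figure D2:**
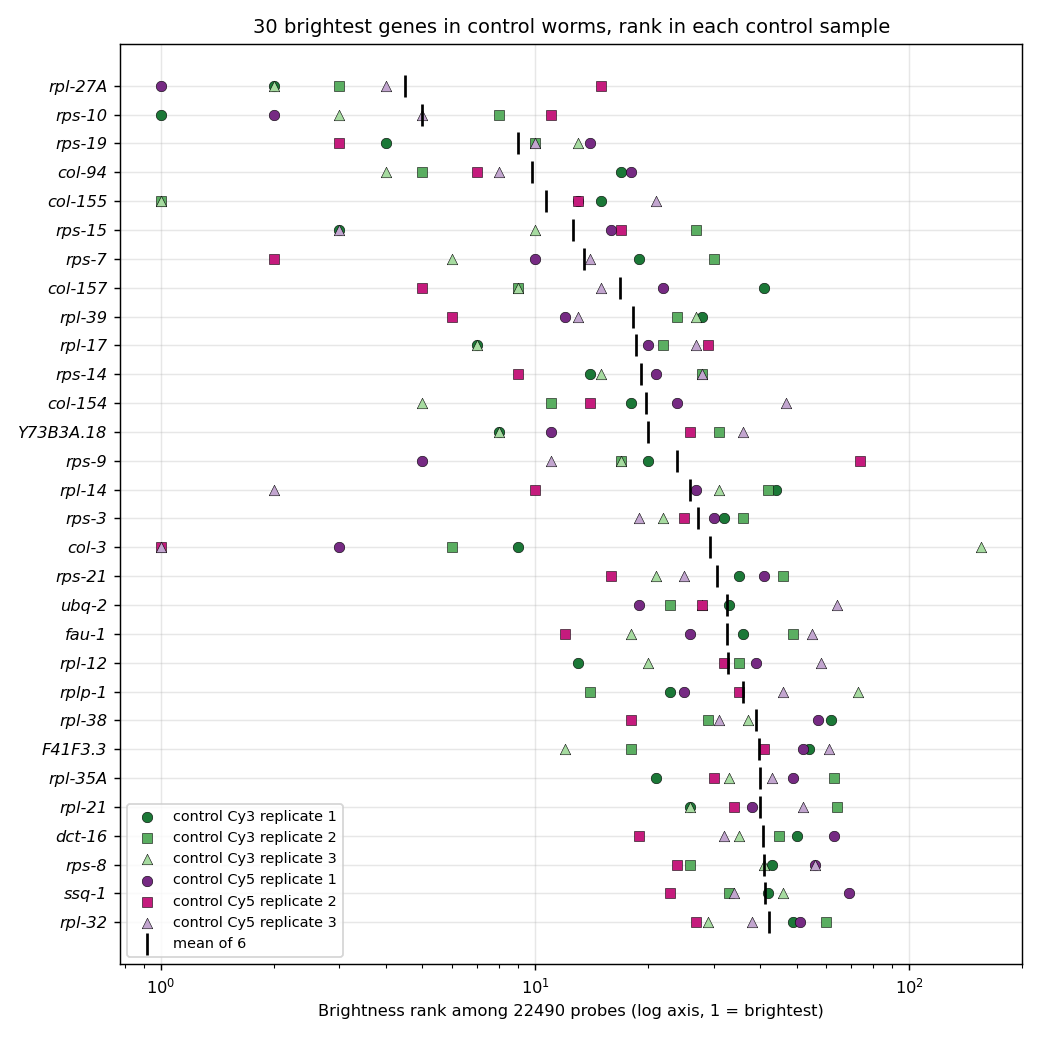
Brightness rank of the 30 brightest genes in each of the 6 control samples (points, log axis, rank 1 is the brightest of 22490 probes), with the mean of the 6 ranks as a bar. Most genes keep ranks below 100 in every sample, and col-3 lies at 156 in control Cy3 replicate 3.

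Ribosomal proteins build the particle that translates messenger RNA, and growing cells need them in nearly equal numbers. Of 78 cytosolic ribosomal protein genes, 76 were above background on all 6 samples, 0 were above it on none, and 68 were among the 200 brightest. The median percentile of the list, the share of probes that were dimmer, was 99.7 against 52.6 for all genes, and per sample it ranged only from 99.69 to 99.74. The large subunit contributed 40 of its 48 genes to the 200 brightest and the small subunit 28 of its 30. The list held between 12.9% and 18.7% of the summed signal of a sample. With the 27 blocks left out, 72 of its genes were among the 200 brightest.

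Some ribosomal protein genes did not follow. The small subunit gene rps-25 had percentiles of 57.4, 99.5 and 99.7 in the lowest, median and highest sample, the lowest being that of the moved block. Without the left out blocks its mean percentile was 99.5. The gene rps-24 had a median percentile of 87.6 and rpl-22 of 89.1, with 0 samples in a left out block. The genes rpl-42 (median percentile 40.4) and rpl-41.2 (45.3) were above background in 1 sample each. The part of probe design in these low ranks was not tested. Mitochondrial ribosomal proteins, which serve translation inside mitochondria, were dimmer: 52 of 65 genes were above background on all samples, 0 were among the 200 brightest, and the median percentile was 87.6. Their brightest members were mrpl-9, mrpl-37 and mrps-23 at mean percentiles of 92.7 to 93.7.

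Other parts of the translation apparatus were also bright. All 8 listed elongation factor genes were above background on all samples. The factor eef-1A.1, which brings transfer RNA to the ribosome, had a lowest, median and highest signal of 16460, 41248 and 48078, and eef-1G had 11755, 18938 and 30087. The factor eef-2, which moves the ribosome along the message, had 1348 in control Cy5 replicate 2, where its spot lay in a left out block, and a median of 43774. Several ribosomal genes have newer names that the list does not hold, and these were added after their values were seen. They included the acidic stalk proteins rplp-0, rplp-1, rplp-2.1 and rplp-2.2, rpsa-1, and the fusions of ubiquitin or a ubiquitin-like protein with a ribosomal protein, ubq-2 and fau-1. All 7 were above background on all samples and among the 200 brightest, with fau-1 at a mean rank of 32.7 ± 17.1 and ubq-2 at 32.5 ± 16.16. The poly(A) binding protein gene pab-1 (place 131) and rack-1 (place 45), a protein bound to the small subunit, were also among the 200.

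Cuticle collagens are small proteins that cells of the epidermis secrete and cross-link into a new cuticle, and different sets serve different stages. Of 158 genes, 94 were above background on all samples, 31 on none, and 26 were among the 200 brightest. Their median percentile was 85.2, but the spread was wide, with a lower quartile of 45.7. The brightest were col-94, col-155, col-157, col-154 and col-3. The signal of col-157 was 48606, 52367 and 59515 in the lowest, median and highest sample. For col-3 it was 16187, 59664 and 65330, the lowest being that of control Cy3 replicate 3, where the spot lay in a left out block. Genes whose mutants have altered body shape were nearly all bright. Both rol genes, all 3 sqt genes and all 3 bli genes were above background on all samples, and so were 8 of 11 dpy genes, with rol-6, dpy-5 and sqt-3 at median percentiles of 99.4, 99.4 and 99.2. The 31 genes above background on no sample were all named col. With the 27 blocks left out, 110 collagens were above background on every remaining sample and 32 on none, and 27 were among the 200 brightest. In the lowest sample, control Cy5 replicate 2, the list median was 82.4.

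Genes of the moulting cycle and the hedgehog-related families, many of which are made in the epidermis and oscillate with the moults, were detected in part. Of 22 moulting genes, 14 were above background on all samples and 1, phy-3, on none. The brightest were mlt-10, noah-1 and qua-1, with median percentiles of 97.2, 96.5 and 94.9. The astacin protease nas-37, which acts in shedding of the old cuticle, had a median percentile of 89.9. Of 56 hedgehog-related genes, 26 (46.4%) were above background on all samples and 20 (35.7%) on none, against 36.6% and 34.3% of all genes. Warthog genes (wrt) were above it in 7 of 10 cases, groundhog genes (grd) in 5 of 14 and groundhog-like genes (grl) in 12 of 30. The brightest were grl-31 (median percentile 98.7), grl-16 (98.5) and grd-5 (97.9). Of 27 patched-related genes, relatives of the hedgehog receptor, 12 (44.4%) were above background on all samples and 4 (14.8%) on none. The brightest were ptc-3, with a median percentile of 94.8, and ptr-4, with 93.2 and above background on 5 samples.

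Digestive genes of the intestine formed another bright group. Cathepsin-type proteases break down bacterial protein in the gut and in lysosomes. Of 25 such genes, 19 were above background on all samples, 4 on none, and 8 were among the 200 brightest, with a list median percentile of 97.8. The aspartic protease gene asp-1 had a signal of 34308, 39701 and 48782 in the lowest, median and highest sample, asp-6 had 23027, 32686 and 44239, and asp-3 had 22016, 33637 and 43401. None of the 6 samples had any of these 3 genes below a percentile of 99.38. Lysozymes, which cut bacterial cell walls, split into bright and dim members: 9 of 16 were above background on all samples and 5 on none. The genes lys-4 (median percentile 99.2), lys-5 (99.2) and ilys-5 (99.4) were among the 200 brightest, while lys-6 and lys-9 were above background on no sample. Saposin-like proteins, membrane-active proteins of which some kill bacteria, had 12 of 22 genes above background on all samples, led by spp-5 and spp-14 with median percentiles of 99.5 each.

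Energy supply was well represented. Of 45 genes of the respiratory chain and ATP synthase, 43 were above background on all samples and 6 were among the 200 brightest. The ATP synthase subunits atp-2 and atp-1 had median percentiles of 99.4 and 99.7, and cyc-2.1, a cytochrome c, had 99.2. The signal of atp-1 was 3395 in control Cy5 replicate 2, in a left out block, and 40488 in the median sample. Glycolysis had 15 of 17 genes above background on all samples with 0 among the 200 brightest, led by aldo-2 (98.6) and gpd-3 (98.7). The vacuolar ATPase, a proton pump, had 19 of 20 genes and the proteasome 30 of 33 genes above background on all samples. Of 15 general chaperones, 14 were above it on all samples, and the Hsp70 gene hsp-1 had a signal of 28606, 36950 and 54102. The chaperonin subunit cct-4 alone was above background on none, with a median percentile of 33.4, while the other listed subunits of the same complex, cct-1, cct-2, cct-3, cct-5, cct-7 and cct-8, were above it on all.

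Outside the family and pathway lists, 72 of the 200 brightest genes remained, tissue markers among them, of which some are named here after their values were seen. They included carriers of fatty acids and retinol secreted by nematodes (far-1, far-2 and far-6), the nucleoside diphosphate kinase ndk-1, the acyl-CoA dehydrogenase acdh-1 and tct-1, the worm gene for translationally controlled tumour protein. The signal of far-2 was 6328 in the lowest and 54599 in the median sample, with 2 samples in left out blocks, and its mean percentile was 99.9 without them. A further gene, lep-5, is a long noncoding RNA of the pathway that times larval development. It had percentiles of 98.8, 99.1 and 99.3. Of the 200 genes, 19 were known by a sequence name only. One of these, Y73B3A.18, lay at place 13 and is annotated as a pseudogene on chromosome X in the assembly WBcel235.

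**Figure D3:**
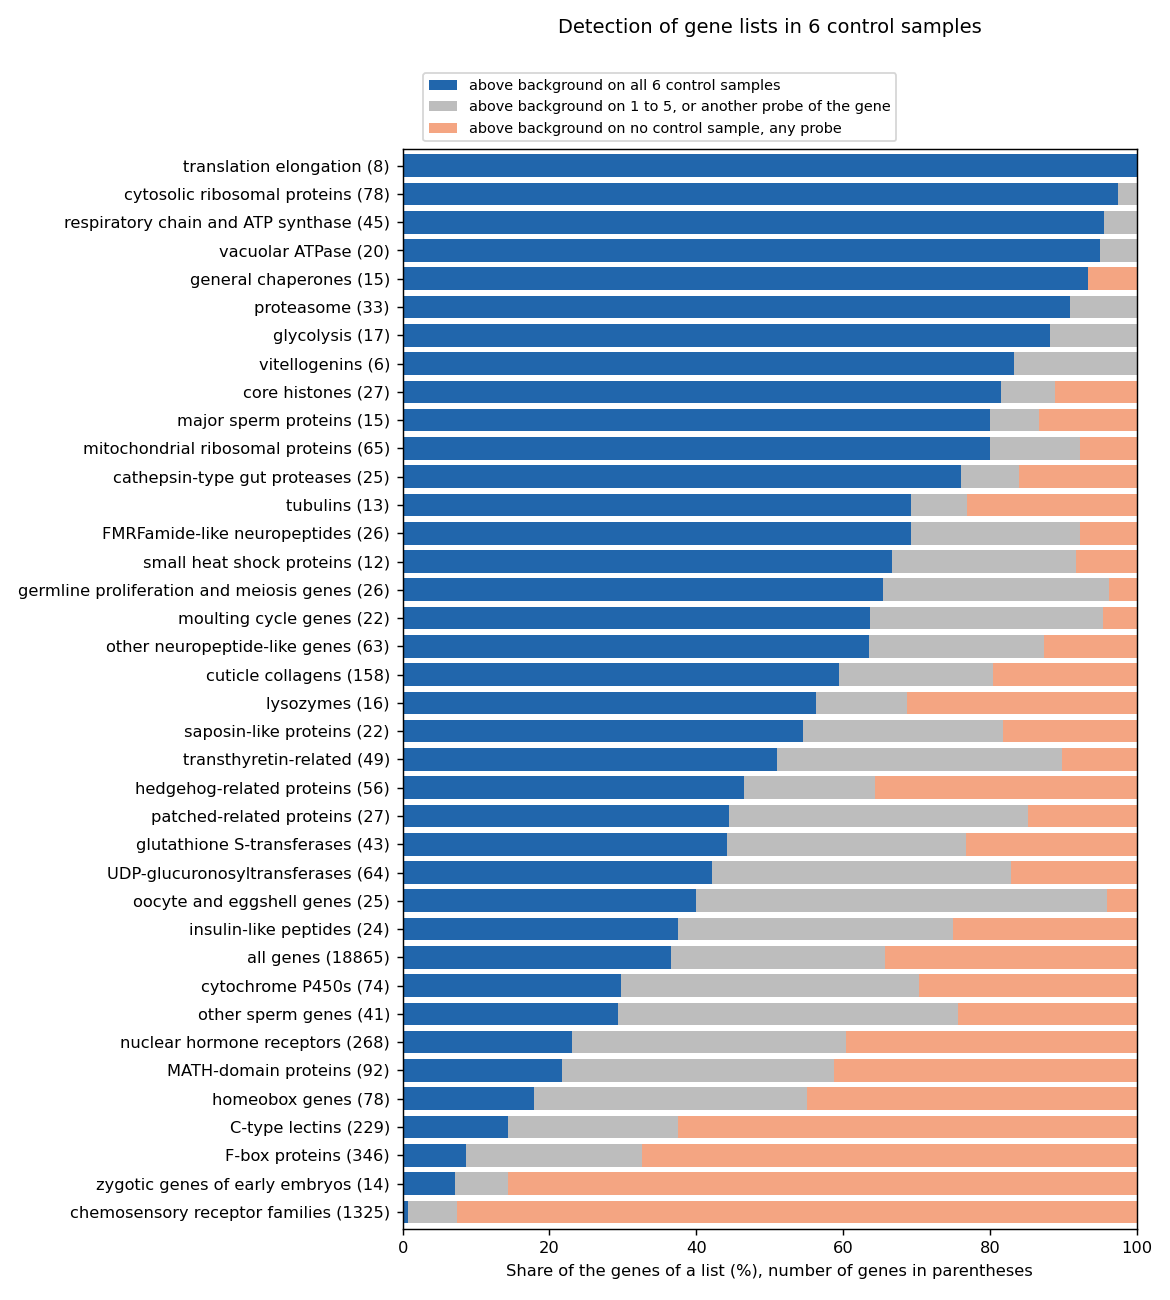
Share of the genes of each list (%, number of genes in parentheses) whose representing probe was above background on all 6 control samples (blue), that were above it on no sample with any probe (orange), or that lay between (grey). All genes stand at 36.6% and 34.3%, the cytosolic ribosomal proteins at 97.4% and 0%, and the chemosensory receptors at 0.755% and 92.6%.

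Tissue markers were checked next. Of 17 intestinal markers, 15 were above background on all samples and 0 on none. The GATA factor elt-2, which specifies intestinal genes, had a median percentile of 86.2, the esterase ges-1 of 89.1 and the brush border actin act-5 of 99.3. The lowest sample of act-5 was control Cy5 replicate 2, with 93.7, where its spot lay in a left out block. Of 20 body wall muscle markers, 16 were above background on all samples and 6 were among the 200 brightest. The actin gene act-4, the troponin C gene pat-10 and the myosin light chain gene mlc-3 had median percentiles of 99.6, 99.5 and 99.2. The myosin heavy chains unc-54 and myo-3 had 99.02 and 94.44. The light chain gene mlc-1 was above background on no sample, at a median percentile of 20.03, whereas mlc-2, its close relative, had 99.2. Muscle markers had their lowest list median, 91.7, in control Cy5 replicate 2.

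Pharyngeal and epidermal markers came next. Of 9 pharyngeal muscle markers, 7 were above background on all samples. The brightest of these, act-1 and mlc-4, with mean percentiles of 99.6 and 94.2, are not particular to the pharynx. The pharyngeal myosin gene myo-2 had a median percentile of 91.5 and the organ selector pha-4 one of 69.6. Of 16 epidermal markers, 10 were above it on all samples and 2, vab-10 and elt-1, on none. The collagen col-93 was above background in 5 samples with a median signal of 15537, and had a signal of 19 in the moved block of control Cy3 replicate 1. Without the left out blocks, 14 epidermal markers were above background on every remaining sample, and so were 17 of 17 intestinal and 17 of 20 muscle markers. Fewer samples had to pass there, and the share of all genes also rose, from 36.6% to 45.6%. Coelomocytes, scavenger cells of which an animal has few, had 1 of 4 markers above background on all samples, and 3 of 4 on every remaining sample without the left out blocks.

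**Figure D4:**
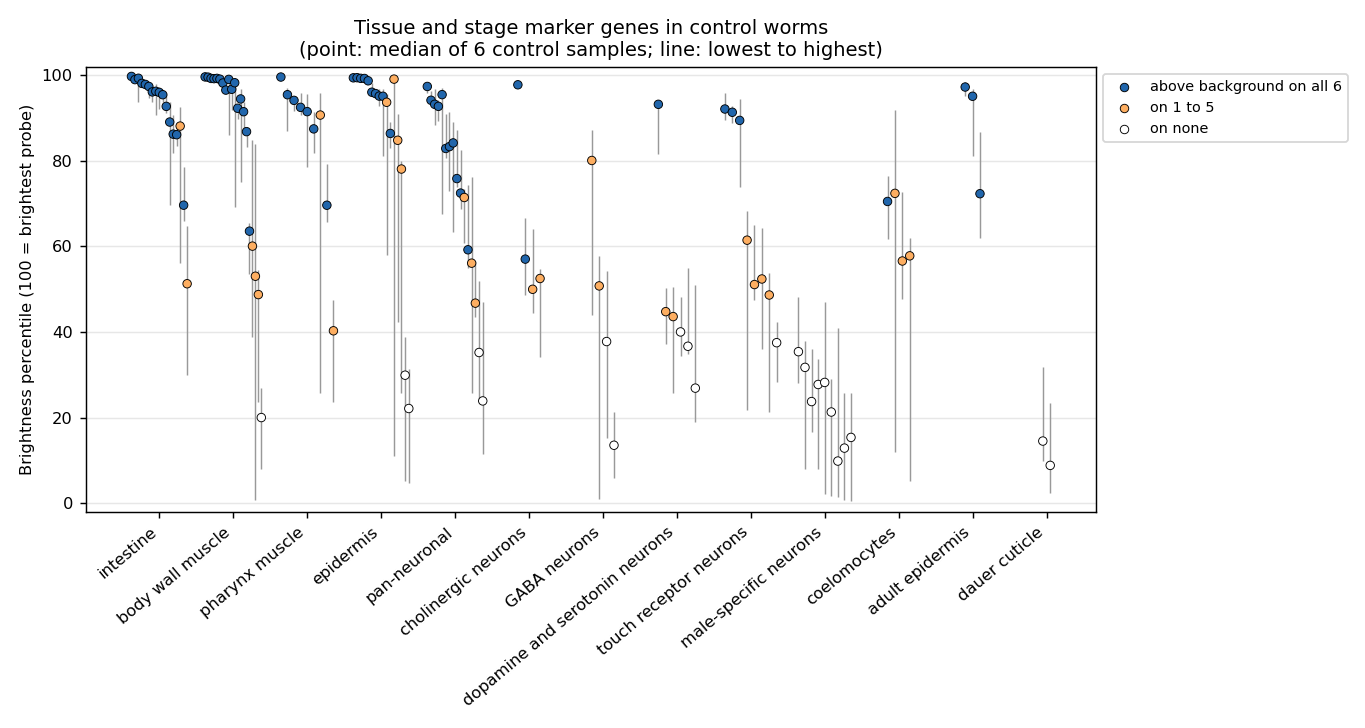
Brightness percentile (100 is the brightest probe) of marker genes of tissues and stages in control worms. Points give the median of 6 control samples and lines run from the lowest to the highest sample, with colours for detection on all 6, on 1 to 5 or on no sample. Intestinal and muscle markers lie mostly above 80, and the 9 genes listed for male neurons are all above background on no sample.

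Stage was read from genes used at other times of life. The dauer larva is an arrested alternative to the third stage. Its cuticle genes cut-1 and col-2 were above background on no sample, with median percentiles of 14.5 and 8.9. Zygotic genes of early embryos, most of which are switched on briefly after fertilisation, were above background on no sample in 12 of 14 cases. Of the others, sdz-23 was above it in 1 sample, in the moved block of control Cy3 replicate 1, and the endoderm factor end-3 was above it on all 6 samples with percentiles of 70.6, 73.7 and 81.3. Its companion gene end-1 was above it on none. Genes with a role in the cuticle of the late larva and adult were present. The blister genes bli-1 and bli-2 had median percentiles of 95.1 and 97.2, and the adult collagen gene col-19, which the heterochronic pathway holds back until the last moult, had 72.3. The signal of col-19 was 78, 368 and 903 in the lowest, median and highest sample. All 3 genes were above background in all 6 samples. Their list median was lowest, at 81.2, in control Cy3 replicate 3. For bli-1, which had that lowest value there, 2 samples lay in left out blocks, and its mean percentile without them was 95.0.

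Vitellogenins are yolk lipoproteins that the intestine of the adult hermaphrodite makes for oocytes. Of 6 genes, 5 were above background on all samples and 0 were among the 200 brightest, and their median percentile was 90.6. The signal of vit-5 was 1250, 2080 and 3106 in the lowest, median and highest sample. For vit-2 it was 668, 1310 and 2156. The dimmest member was vit-1, with percentiles of 56.7, 62.3 and 70.7. The remaining gene, vit-6, had 54 in control Cy5 replicate 3, 1872 in the median and 4115 in the highest sample, and 2 of its samples lay in left out blocks. Sequences of vit-3, vit-4 and vit-5 are alike, so that a probe may bind the transcripts of several members.

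Sperm genes were among the brightest of the germline. Major sperm proteins form the cytoskeleton with which nematode sperm crawl. Of 15 genes, 12 were above background on all samples and 2, msp-36 and msp-10, on none. Genes of this family are nearly identical and their single values are uncertain. The brightest were msp-56, with a signal of 13642, 25562 and 35713 in the lowest, median and highest sample, msp-51 with 14724, 24350 and 35544, and msp-76 with 3861, 26204 and 41725. The list median lay between 98.27 and 98.73 in 5 samples and at 95.4 in control Cy5 replicate 2. The sperm-specific family gene ssq-1, outside the list, lay at place 29 with a mean rank of 41.17 ± 15.79, and ssp-10 at place 189. They are neighbours on chromosome IV. With the 27 blocks left out, ssp-10 was no longer among the 200 brightest. Of 41 other sperm genes, 12 (29.3%) were above background on all samples and 10 (24.4%) on none, with a median percentile of 55.6. The shares of all genes were 36.6% and 34.3%, and their median percentile was 52.6. Without the left out blocks, 20 of the 41 (48.8%) were above background on every remaining sample, where fewer samples had to pass. The share of all genes rose there as well, from 36.6% to 45.6%. Among the 41, 5 of 7 nspd genes were above background on all samples, but 3 of 16 spe genes, which act in sperm formation and activation.

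Germline and oocyte genes lay in the middle of the order. Of 26 genes of germline proliferation and meiosis, 17 were above background on all samples and 1, nos-2, on none, with a median percentile of 72.0. The exception upwards was pgl-1, for a constitutive component of P granules, at place 58. Its signal was 30807, 35910 and 48739 in the lowest, median and highest sample. The next members were nos-3 with a median percentile of 93.6 and prg-1, the Piwi protein, with 90.7. Of 25 oocyte and eggshell genes, 10 were above background on all samples and 1, the eggshell chitin synthase gene chs-1, on none. The brightest were cey-2 (95.1), perm-4 (96.6) and mbk-2 (90.2). The lowest sample of perm-4 had a percentile of 61.3, with 2 samples in left out blocks. With the 27 blocks left out, 22 of the 26 germline genes (84.6%) were above background on every remaining sample. The same held for 17 of the 25 oocyte genes (68.0%) and for 45.6% of all genes. Genes listed as markers of male-specific neurons, such as lov-1 and pkd-2, were above background on no sample in 9 of 9 cases. Whether each of them is made in males only was not checked.

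Neurons make up a small part of the body mass, and their markers were detected unevenly. Of 16 pan-neuronal markers, 11 were above background on all samples and 2, unc-31 and rgef-1, on none. The neuroendocrine genes ida-1 and sbt-1 were the brightest, with median percentiles of 97.4 and 94.1. The proprotein convertase egl-3, which cuts neuropeptide precursors, had 92.7. Of the touch receptor genes, the tubulin gene mec-7 had 92.1 and mec-17 had 91.3, while the channel gene mec-4 had 51.1. Of 4 GABA markers, 0 were above background on all samples and 2, unc-30 and unc-46, on none. The sample in which unc-25 was not above background lay in a left out block. Without these blocks 2 of the 4 GABA markers were above background on every remaining sample, as were 45.6% of all genes. Of 6 genes of dopamine and serotonin neurons, the decarboxylase gene bas-1 had a median percentile of 93.2 and was above background on all samples, while the synthesis genes tph-1 and cat-2 were at 40.03 and 36.69.

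Acetylcholinesterases, which remove acetylcholine from the synapse, are the targets of organophosphorus insecticides. In control worms ace-2 had a signal of 3814, 8140 and 11238 in the lowest, median and highest sample, and was above background on all 6. The gene ace-1 had 58, 64 and 136 and was above background on 4. The choline transporter gene cho-1 had a median percentile of 57.0. Brightness of different probes is not a ratio of transcripts, so these values rank the probes only.

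Neuropeptides are cut from secreted precursors and act between cells. Of 26 FMRFamide-like genes (flp), 18 were above background on all samples and 2, flp-23 and flp-32, on none, led by flp-15 (median percentile 94.6), flp-5 (92.4) and flp-14 (91.9). Of 63 other neuropeptide-like genes (nlp), 40 were above it on all samples and 3 were among the 200 brightest. These were nlp-24, nlp-26 and nlp-33, with median percentiles of 99.4, 99.4 and 99.2. Several nlp genes, nlp-29 and nlp-33 among them, encode antimicrobial peptides of the epidermis. While nlp-33 was among the 200 brightest, nlp-29 was above background on no sample, so nlp-29 does not stand for these genes as a group. Of 24 insulin-like peptide genes, 9 were above background on all samples and 6 on none. Their brightest members, ins-35, ins-17 and ins-30, had median percentiles of 82.7, 80.0 and 78.1.

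Large families with narrow or conditional expression were mostly dim. Chemosensory receptors are G protein coupled receptors, many of which are made in a few sensory neurons. Of 1325 genes, 1227 (92.6%) were above background on no sample and 10 (0.755%) on all 6. In each of the 20 subfamilies at most 2 genes were above it on all samples. The exception in brightness was srh-211, at place 195, with a signal of 6335, 17556 and 32646 in the lowest, median and highest sample. It was followed by sre-2 (median percentile 90.9) and srr-4 (88.8). With the 27 blocks left out, srh-211 was no longer among the 200 brightest, and 16 of the 1325 genes were above background on every remaining sample and 1249 on none. F-box proteins, the substrate adaptors of ubiquitin ligases, were above background on no sample in 233 of 346 cases. The fbxb branch had 0 genes above it on all samples, against 26 of 195 in fbxa and 4 of 47 in fbxc.

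The 2 lists of transcription factors had lower median percentiles than all genes. Of 268 nuclear hormone receptors, 62 (23.1%) were above background on all samples and 106 (39.6%) on none, against 36.6% and 34.3% of all genes. Their median percentile was 45.5 against 52.6 for all genes. The brightest was nhr-114, with a median percentile of 97.3, followed by nhr-97 (93.5) and nhr-69 (84.2). Of 78 genes listed by name as homeobox genes, 14 (17.9%) were above background on all samples and 35 (44.9%) on none. Their median percentile was 39.6, with ceh-33 (89.3), lim-9 (92.1) and ceh-100 (92.7) at the top of the order. The genes lim-9 and lim-8, both above background on all samples, are named for a LIM domain and were not checked for a homeobox. In ceh-100 the percentile was 29.9 in control Cy5 replicate 2, in a left out block. C-type lectins, secreted sugar-binding proteins of which many respond to pathogens, had 33 of 229 genes above background on all samples and 143 on none. One of them, clec-63, was among the 200 brightest, with a signal of 11150, 19374 and 28864, but no longer so with the 27 blocks left out.

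In the absence of CPF, the shares of detoxification genes above background on all samples lay on both sides of that of all genes. Cytochrome P450 enzymes oxidise foreign compounds. The 74 genes had a median percentile of 45.6 against 52.6 for all genes, with 0 among the 200 brightest. Of them, 22 (29.7%) were above background on all samples and 22 (29.7%) on none, against 36.6% and 34.3% of all genes. All 4 cyp-31 genes and 3 of 4 cyp-29 genes were above it on all samples, as were 3 of 10 genes of the cyp-35 group and 4 of 17 of cyp-33. The members with the lowest mean rank were cyp-29A2, cyp-31A3 and cyp-31A5, with median percentiles of 85.5, 85.4 and 84.2. The next was cyp-35C1, with percentiles from 77.9 to 90.2. The genes cyp-35A4 and cyp-35A3 had signals of 156, 196 and 385 and of 116, 248 and 417, and cyp-35A1 was above background on no sample. UDP-glucuronosyltransferases, which attach sugars in the second step, had 27 of 64 genes (42.2%) above background on all samples and 11 (17.2%) on none. They were led by ugt-22 (96.7). Glutathione S-transferases had 19 of 43 (44.2%) and 10 (23.3%), led by gst-26 (96.6). Small heat shock proteins had 8 of 12 genes above background on all samples, with hsp-25 at 97.01 and hsp-12.2 at 94.5. The heat-inducible hsp-16 members, named after their values were seen, were spread widely. The gene hsp-16.41 was above background on all 6 samples, with percentiles from 55.8 to 85.9. The median percentile was 49.7 for hsp-16.2, which was above background on 5 samples, and 21.2 for hsp-16.20, which was above it on none. The gene hsp-16.21 was above background in 1 sample only, control Cy3 replicate 3, where its spot lay in a left out block and had a signal of 6733 against -1 to 39 in the others.

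Length, annotation and position of the genes were looked at with the gene table of WBcel235, which the probes were not designed on. The 200 brightest genes were short, with a median gene length of 930 bp against 2149 bp for all genes and 2402 bp for genes above background on all samples. Genes above background on none had a median of 1755 bp. Of 959 annotated pseudogenes, 89 (9.28%) were above background on all samples and 694 (72.4%) on none, against 39.5% and 30.4% of 16931 protein-coding genes. Among the 200 brightest, 14 pairs were next to each other among protein-coding genes, such as rplp-1 and rpl-27A, rps-10 and rpl-24, far-1 and far-2, lys-4 and lys-5, and col-117 and col-3. Pairs were not counted in other sets of genes, so whether 14 is many is not known. Binding of a probe to both genes of a pair was not tested.

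Chromosomes differed in their share of detected genes. On chromosome III 47.02% of the genes and on chromosome I 44.3% were above background on all samples, against 28.04% on chromosome V. Chromosome V holds 915 of the 1325 chemosensory receptor genes, and without that list its share was 35.03%. On the X chromosome 36.6% of 2464 genes were above background on all samples, and 37.0% without the receptors, against 38.1% and 41.5% on the autosomes. Of the 200 brightest genes, 21 lay on X and 177 on autosomes, which is 0.852% and 1.15% of the genes there. Of the 15 major sperm protein genes and the 41 other sperm genes, 0 lay on X. The same held for the 26 germline genes and the 25 oocyte genes, whereas 12 of 26 flp genes (46.2%) lay there. Of all 18865 genes, 2464 (13.1%) lay on X. These shares are descriptions of one set of probes and carry no test.

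**Figure D5:**
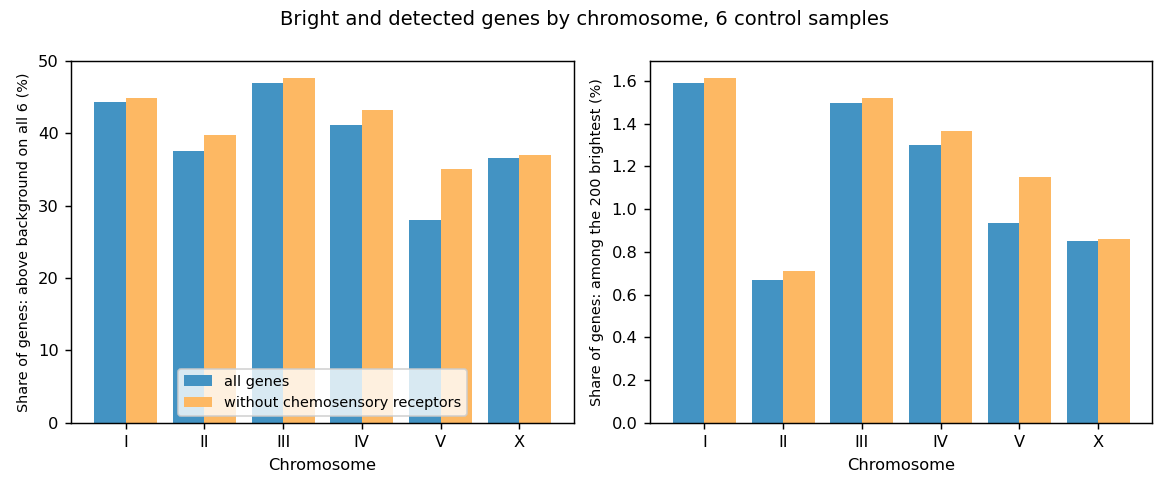
Share of the genes of each chromosome (%) that were above background on all 6 control samples (left) and that were among the 200 brightest (right), for all genes and without the chemosensory receptors. Chromosome V rises from 28.04% to 35.03% in the left panel when the receptors are left out.

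Variation among the control samples was described next. The pooled SD within dye of the normalized log2 signal had a median of 0.45 over the 6902 genes above background on all samples. It was 0.82 for the 1284 genes with a sample in a left out block and 0.43 for the other 5618. It exceeded 1 in 34.1% and 1.19% of them. Blocks were left out because they differed from the other samples, so a larger spread of genes in left out blocks follows in part from that choice. Of the 15 genes with the largest SD, 13 lay in such blocks, among them rps-25, nspc-15, serp-1.1, pud-2.1, mlc-5, acbp-1, ucr-1, ego-2 and msp-38, and so did 94 of the first 100. For these 9 the lowest value belonged to control Cy3 replicate 1 or control Cy5 replicate 2. Outside the left out blocks the largest differences came from a lone sample. The nuclear pore gene npp-10 had a log2 signal of 15.64 in control Cy3 replicate 3 and 8.69 to 10.41 in the other 5 samples, and sul-2 had 13.18 in control Cy3 replicate 1 and 7.20 to 8.59 in the others. Values above all other samples were also seen for ddo-1 and cest-2.2 in control Cy3 replicate 3, sth-1 in control Cy3 replicate 2 and F11F1.2 in control Cy5 replicate 2.

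The dye and the day of scanning were compared across all 22490 probes with limma. Between control samples in Cy5 and in Cy3, 0 probes (0%) passed an adjusted p of 0.05, and 629 (2.80%) had an unadjusted p below it. The lowest adjusted p was 0.971 and the median size of the log2 difference was 0.19. Dye and the trio of samples labelled with it cannot be told apart here. Arrays were scanned on 2 days, with 3 control samples each and both dyes on both days. With the dye in the model, 0 probes (0%) differed between scan days and 1359 (6.04%) had an unadjusted p below 0.05, with a lowest adjusted p of 0.803. The median size of that difference was 0.23 on the log2 scale. Without control Cy5 replicate 1, 50 probes passed, 49 of them brighter on scan day 2. That difference rests on 1 sample of scan day 2, control Cy3 replicate 3, with 7 left out blocks, against control Cy3 replicates 1 and 2, and the lone sample is assumed to vary like the others. A p that misses the threshold does not show that the samples were alike.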

How the data were processed

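The control channel of 6 two-colour arrays was analysed, and each channel was assigned by the dye that the labels give to control worms. The deposited scanner files hold intensity values of each spot and its local background, quantified by the authors with ScanArray Express without normalization. Per the file headers they also hold the percent of saturated pixels and a scanner code of each spot. The authors' normalized log ratios of both channels do not hold a control level and were not used. Which genome build the probes were designed on was not stated. Probes were named through their sequence name with the RefSeq table of WBcel235 (21382 by locus tag, 31 by gene number), and 1077 kept the name in the file. Columns of other samples: 0.

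Signal was mean foreground minus median local background and was ranked per sample. A spot counted as saturated with over 25% saturated pixels. Members and lists were chosen with earlier results of these data known. Named were the 30 brightest genes, the 3 brightest members and the defining markers of each list, and the 15 most variable genes, and others are marked as chosen later or stand for a list. For the dye and scan day comparisons, normexp (offset 50), quantile normalization and limma 3.58.1 in R 4.3.3 were used with Benjamini-Hochberg adjustment, and the script was tested on simulated data. Alternatives changed the threshold, background correction, normalization, samples and blocks. The number of arrays limits the precision.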

Additional observations from a re-analysis of the deposited data

Results flagged for a closer look

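In each control group of 6, a sample was singled out where its gap to the nearest other sample exceeded the 95% critical value of Dixon's test as a share of the range. Chance singles out about 1 in 20 groups. It was met by 7 of 51 list medians and by 40 of the 179 genes tested, 18 of them in a left out block. These genes include the most variable ones, named for their spread, so their number is not to be read against that share. List medians come from the same 6 samples, some lists share genes, and the 51 include all genes. The number of list medians is therefore not to be read against that share either. Of the list medians, 5 were lowest in control Cy5 replicate 2. The cuticle collagens had a median percentile of 82.4 there against 88.2 to 90.4 in the other samples, and the saposin-like proteins 77.7 against 87.8 to 89.7. The major sperm proteins had 95.4 there, the body wall muscle markers 91.7 and translation elongation 96.97. Genes of the flp family were lowest in control Cy3 replicate 1, at 76.1, and the adult epidermis markers in control Cy3 replicate 3, at 81.2.

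Among genes in left out blocks the normalized log2 signal was low in control Cy5 replicate 2 for act-5 (11.20), atp-1 (12.52), cct-2 (8.89), ceh-100 (6.26), eef-2 (11.32), myo-3 (8.82), perm-4 (7.73) and unc-25 (6.69). It was low in control Cy3 replicate 3 for ant-1.1 (12.31), col-3 (14.52), far-1 (13.78) and far-2 (13.25), and high there for hsp-16.21 (13.36). In control Cy3 replicate 1 it was low for col-93 (6.03), ego-2 (7.22) and rps-25 (7.46) and high for sdz-23 (7.11), and in control Cy5 replicate 3 for vit-6 (6.71).

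Outside the left out blocks, a log2 signal above all other samples was found for npp-10 (15.64), cest-2.2 (13.95), ddo-1 (13.68) and unc-31 (7.11) in control Cy3 replicate 3. The same held for sul-2 (13.18) in control Cy3 replicate 1, sth-1 (12.45) in control Cy3 replicate 2, and in control Cy5 replicate 2 for F11F1.2 (11.14), lys-5 (14.83), mec-7 (11.88), cat-2 (7.31), hsp-16.2 (7.78) and rgef-1 (6.85). The representing probes of unc-31, cat-2 and rgef-1 were above background on no sample, so their values lie near the floor. Another probe of cat-2 was above background in 1 sample. The spots of npp-10 and ddo-1 lay in block row 11 and block column 4, and that of cest-2.2 in row 11 and column 3. Values below all other samples were those of gpd-3 (12.45), ilys-5 (12.92), sqt-3 (13.25) and rpl-27A (15.65) in control Cy5 replicate 2. Further low values were those of pgl-1 (14.89), nhr-97 (10.41) and rpl-22 (9.71) in control Cy5 replicate 1, and of mrpl-37 (10.31), ubq-2 (15.25) and vit-5 (10.48) in control Cy5 replicate 3.

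Control spots outside the ranking also gave signal. Spots with E. coli sequences were above background in 47.2% of spots over the 6 samples, and spots with plant sequences of a spike-in set in 10.7%, against 0.108% of the empty spots.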

How the results depend on the processing

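Of the 22490 probes, 7673 were above background on all 6 control samples and 8149 on none. The first count lay between 6592 (3 SD) and 11085 (99th percentile of empty spots) under the other settings, and between 7678 and 9128 with 1 sample left out. The count on no sample moved to 3748 with the 99th percentile of empty spots as threshold, and to 18 when only spots of scanner code 3 were used, which leaves few spots, and lay between 8193 and 9101 with 1 sample left out. Of the 200 brightest probes, 184 to 200 were kept under the other settings and 189 to 197 with 1 sample left out. Medians of 51 lists moved by more than the spread between samples in 13 cases with Cy3 samples alone, in 11 with Cy5 alone, in 16 with the 27 blocks left out and in 14 with the mean over all probes of a gene in place of its brightest. The last gave the largest move, of the pan-neuronal markers from 78.5 to 63.4.

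Between dyes, 0 probes passed under any setting run. Within a scan day 1 dye has 1 sample, so those counts say little. Between scan days, the count was 0 except without control Cy5 replicate 1, where 50 passed, so that the range with 1 sample left out was 0 to 50. The cause was not tested. No pairing by replicate number was seen. Same-numbered Cy3 and Cy5 samples deviated together with r of -0.026, -0.233 and -0.206, and differently numbered ones with r from -0.110 to 0.220. With 3 samples per dye, such values cannot show whether the samples were paired. With the replicate number as a block, 0 probes passed in either comparison, with unadjusted p below 0.05 for 487 and 3388 probes.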
